A study of Mus musculus with 9 samples.

Results

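Macrophages sorted from mouse skin wounds 14 days after injury were examined for which genes they expressed most and for how far the libraries of that time point differed from each other. The 5 libraries that carry the label of 14 days post injury were used, out of 9 libraries in the series. All came from C57BL/6J wild-type mice with no treatment. Wounds were digested to single cells, dead cells were excluded with 7-AAD, and cells that carried CD45, CD11b and F4/80 at their surface were sorted for RNA sequencing with a kit that does not mark the strand. The labels give neither the age nor the sex of the mice, and do not state whether each library is from its own animal, so the spread described here may be partly technical.

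Skin wounds heal through an inflammatory stage, a stage of new tissue growth and a late stage of tissue maturation. Macrophages take part in all of them. Some are resident in the skin and others arise from blood monocytes that enter the wound and mature there. They engulf dead cells and debris, break them down in lysosomes, present peptides on MHC class II molecules, and release chemokines, growth factors and matrix proteins. Signals such as IL-4 and interferons each induce recognisable sets of genes in them.

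The deposited table held estimated counts for 18303 gene symbols. The libraries, numbered as replicates 1 to 5, held 50445171, 25073554, 23713912, 21396800 and 17982633 counts, and between 14537 and 16233 genes with a count in each. Replicate 5 stood apart in 1 respect. Its counts stopped at Aplp2 on chromosome 9 (31149557 to 31211848, GRCm38), so that Aplp2, the genes beyond it on that chromosome and those of X and Y held 0.0254% of its counts, against 7.49% to 7.93% in the other 4 libraries. These 1504 genes, 3 without a known position included, were described from replicates 1 to 4, and their values are marked by n = 4. The unit below is CPM: a gene's counts relative to the scaled size of its library, not divided by transcript length.

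The transcriptome had a small set of very abundant transcripts. Of the 18303 genes, 17564 held at least 1 count, 9714 had a mean of at least 5 CPM, 2242 of at least 100 CPM, 103 of at least 1000 CPM and 34 of at least 2000 CPM. The 10 most abundant genes took 7.83% ± 0.07 of the counts (SD, n = 5) and the 100 most abundant took 24.6% ± 0.134. The latter share lay between 24.5% and 24.8% in every library. Between 590 and 617 genes were enough to hold 50% of a library's counts.

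Lyz2, which encodes the bacteria-digesting lysozyme of myeloid cells (chromosome 10, 117277541 to 117282272), had the highest mean. Its level was 11254, 10842, 9330, 11150 and 9991 CPM in replicates 1 to 5, with a mean of 10513 ± 827 CPM (SD, n = 5). It was the most abundant gene in 4 libraries. In replicate 3, Thbs1 exceeded it with 10114 CPM. Lyz2 has a near-identical neighbour, Lyz1, between which the authors' counting could have split reads.

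Below Lyz2, the order ran through genes of secretion, antigen presentation and the lysosome. Ahnak, a giant scaffold protein, reached 8240 ± 1081 CPM. Sepp1, the selenium carrier selenoprotein P, reached 8150 ± 1476 CPM, and Cd74, the invariant chain of MHC class II, reached 8114 ± 849 CPM. These 3 means differed by less than the spread of any of them. Ctsb, the lysosomal protease cathepsin B, followed with 7414 ± 458 CPM and Apoe, the lipid carrier apolipoprotein E, with 7382 ± 611 CPM. Thbs1, the matrix protein thrombospondin 1, had 7294 ± 1906 CPM, and its standard deviation was large enough to span the means of Ahnak, Sepp1, Cd74, Ctsb, Apoe and Psap. Psap, the precursor of the lysosomal saposins, came next with 6155 ± 203 CPM.

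The next tier lay between 2713 and 4532 CPM. It held Tmsb4x, an actin-sequestering peptide, with 4532 ± 492 CPM (n = 4), the matrix protein gene Fn1 with 4524 ± 426 CPM and Mrc1, the mannose receptor CD206, with 4457 ± 375 CPM. The chains of MHC class II stood at 4307 ± 418 CPM for H2-Aa, 3679 ± 385 CPM for H2-Eb1 and 3037 ± 292 CPM for H2-Ab1. Both ferritin chains, which store iron, were in the same tier, with 3277 ± 85.6 CPM for Ftl1 and 3040 ± 202 CPM for Fth1. F13a1, the coagulation factor XIII A chain made by macrophages, had 3313 ± 338 CPM. Col3a1, a collagen chain and a fibroblast marker, was 22nd in the order with 2992 ± 628 CPM. Neighbours in this tier mostly differed by less than their spread, so the exact order among them is not resolved.

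**Figure D1:**
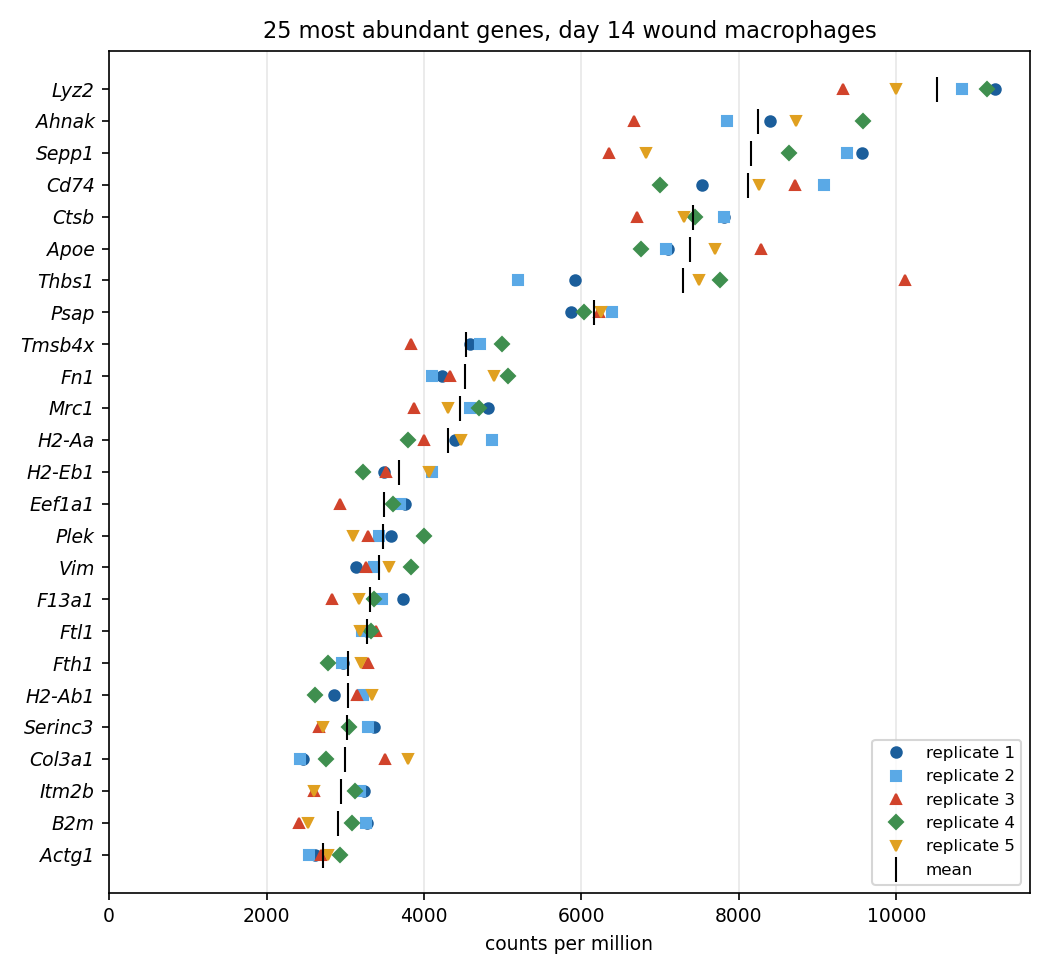
Level of the 25 genes with the highest mean, in CPM on a linear axis that starts at 0. Each symbol is 1 library and the black bar is the mean; genes of chromosome X or of chromosome 9 beyond Aplp2 have 4 symbols. Thbs1 is spread from 5190 to 10114 CPM, while Ftl1 is spread from 3182 to 3393 CPM.

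Long transcripts yield more fragments, so genes were also ordered by CPM per kilobase of annotated exon. On that scale Lyz2 remained first with 7989 CPM per kilobase. Cd74, Apoe, H2-Aa and Sepp1 came next, with 5730, 4016, 3818 and 3800 CPM per kilobase. Retnla, a secreted protein induced by IL-4 that is 33rd by CPM, was 6th per kilobase with 3614. Ahnak, with 18.3 kb of exon, moved from the second place to the 84th with 449 CPM per kilobase. Of the 25 most abundant genes by CPM, 18 were also among the 25 most abundant per kilobase, and of the first 100, 61 were shared.

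The transcripts of the 4 genes listed as sort markers were abundant. Csf1r, the receptor for the macrophage growth factor CSF1, had 1951 ± 117 CPM. Its product CD115 was stained, but the sort is described by CD45, CD11b and F4/80. Ptprc (CD45) had 1402 ± 74.7 CPM, Emr1 (F4/80) had 1337 ± 102 CPM and Itgam (CD11b) had 1186 ± 65.1 CPM. All 17 genes of a macrophage identity list were above 5 CPM, with a median of 411 CPM. The libraries thus held the listed transcripts of the labelled cell type. The cells were sorted on CD45, CD11b and F4/80, so the levels of the sort markers are no independent check of identity.

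Markers of other cell types were present at levels that differed greatly by type. The defining T cell genes Cd3d, Cd3e and Cd3g were at or below 0.141 CPM in every library that holds them. Il7r at 208 ± 69.1 CPM and Cd4 at 53.5 ± 7.56 CPM, listed as T cell markers, are genes that macrophages can also express. The keratin genes Krt5 and Krt14 had 1.88 ± 0.901 and 2.33 ± 1.24 CPM. Among neutrophil markers, Elane was at 0 in every library and Mpo was at or below 0.453 CPM, whereas S100a9 had 293 ± 313 CPM. Fibroblast markers were high throughout: the 10 markers that all 5 libraries hold summed to 5462, 5574, 8068, 6194 and 9015 CPM in replicates 1 to 5. In bulk RNA, more cells of a type and more RNA per cell cannot be told apart.

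The 4 Y-linked genes Ddx3y, Uty, Eif2s3y and Kdm5d were detected in replicates 1 to 4, and replicate 5 could not be read on them. Ddx3y, an RNA helicase gene, had 349, 340, 307 and 322 CPM. Xist, the RNA of X inactivation, was at or below 0.675 CPM in the same libraries, and Tsix had 0 counts. All 4 libraries thus showed the same pattern.

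The spread between libraries was measured for each of the 9714 genes at 5 CPM or more as the coefficient of variation (CV), the standard deviation divided by the mean. The median CV was 0.107, with quartiles at 0.0734 and 0.153. Counting alone would give a median of 0.0335, so for most genes the libraries differed by more than counting error. The median CV was 0.130 for genes from 5 to 20 CPM and 0.0964 from 20 to 100 CPM. It was 0.0969 from 100 to 1000 CPM and 0.105 above that. Past 20 CPM it therefore did not fall further with abundance, while the counting part fell to 0.00509 among genes at 1000 CPM or more. The common biological coefficient of variation, edgeR's estimate of the spread beyond counting, was 0.156 over 11504 genes.

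**Figure D2:**
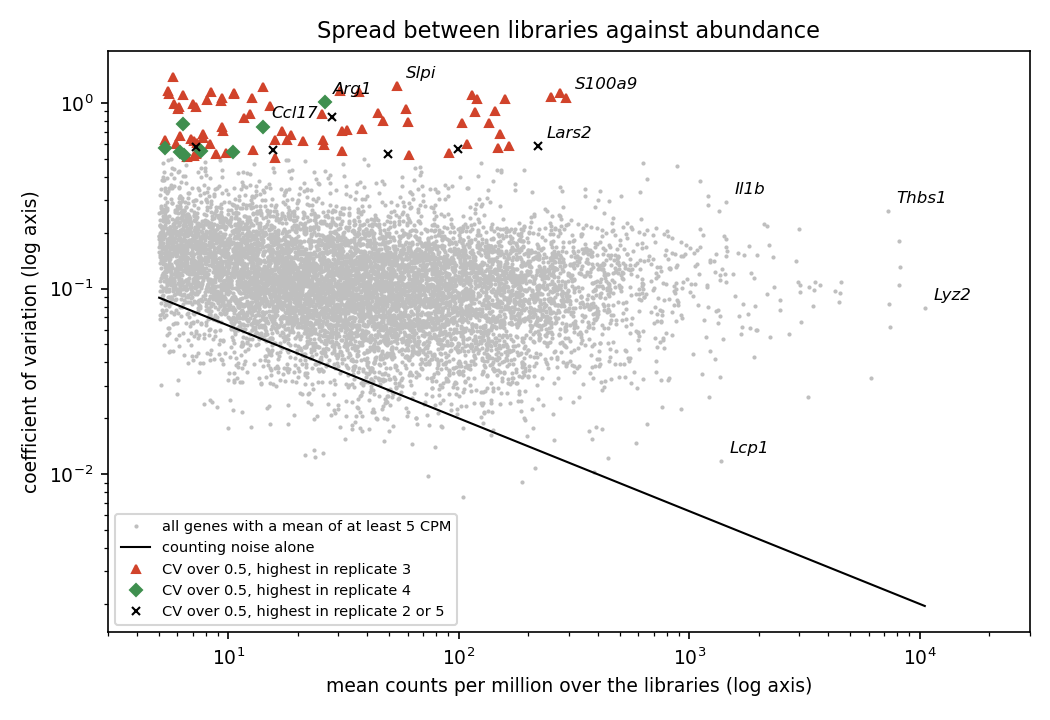
Coefficient of variation of each of the 9714 genes with a mean of at least 5 CPM (vertical, log axis) against its mean in CPM (horizontal, log axis). The line is the value that counting alone would give; red triangles are genes with a value over 0.5 that were highest in replicate 3, green diamonds those highest in replicate 4 and crosses those highest in replicate 2 or 5. Red triangles make up 73 of the 87 genes over 0.5.

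Genes with the smallest spread came from several functions. Lgals9, a galectin, had 104, 105, 105, 106 and 104 CPM in replicates 1 to 5, with a CV of 0.00755. Ep300, a histone acetyltransferase, had a CV of 0.00905 at 187 CPM, and Acly, which makes acetyl-CoA for lipid synthesis, had 0.0107 at 214 CPM. Lcp1, an actin-bundling protein of leukocytes, combined a high level with a small spread. Its values were 1361, 1357, 1397, 1382 and 1375 CPM, with a CV of 0.0118. Gapdh, often used as a reference gene, had 191 ± 3.85 CPM. Among 9714 genes, 50 had a CV under 0.02 and 344 were below the value that counting alone would give. These small values depend on the scaling. With total counts in place of TMM scaling, the CV was 0.0463 for Lgals9, 0.0518 for Ep300, 0.0618 for Acly, 0.0551 for Lcp1 and 0.0597 for Gapdh. With RLE scaling that of Lgals9 was 0.0157.

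The libraries did not differ from each other evenly. Among the 10 pairs, replicates 1 and 2 were the closest, with a biological coefficient of variation of 0.0832 and 9 genes that differed at least 2-fold. Replicates 3 and 4 were the farthest apart, with 0.211 and 168 genes. Replicate 3 differed from replicates 1 and 2 by 0.206 and 0.202, but from replicate 5 by 0.119. Every pair differed by far more than counting noise, with a chi-square over its degrees of freedom of 13.3 or above, so none was a copy of another. This does not show that they came from separate animals. On the first principal component, which held 63.6% of the variance, replicate 3 lay at 23.6 and replicate 5 at 8.68, and replicates 1, 2 and 4 lay between -11.5 and -10.1. The second, with 19.6%, separated replicate 2 at 10.5 from replicate 4 at -11.5.

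**Figure D3:**
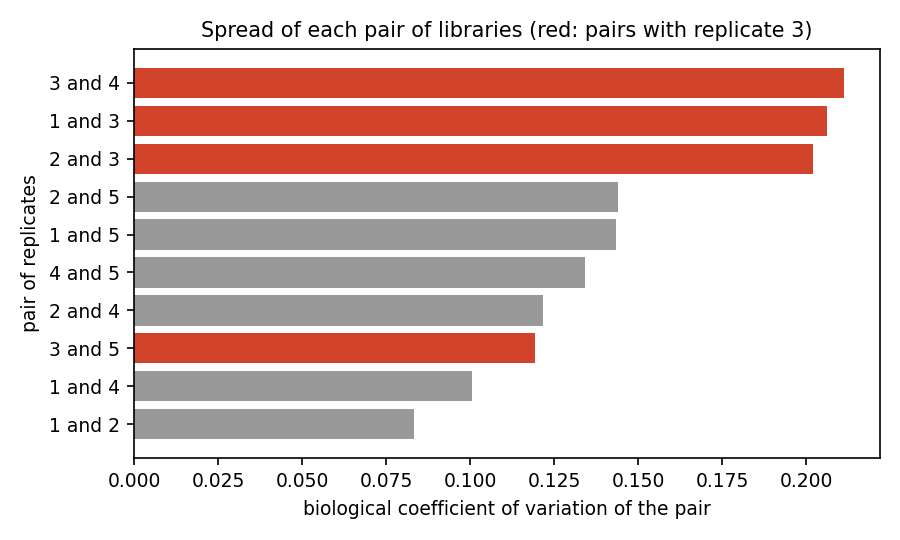
Biological coefficient of variation of each of the 10 pairs of libraries, as bars from 0. Pairs that include replicate 3 are red. The pairs of replicate 3 with replicates 1, 2 and 4 lie at 0.202 to 0.211, and its pair with replicate 5 at 0.119.

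A CV over 0.5 was found in 87 of 9714 genes, or 0.896%. Replicate 3 held the highest value in 73 of them, replicate 4 in 8, replicate 2 in 4, replicate 5 in 2 and replicate 1 in 0. Some of the 73 reached a mean of 5 CPM only through replicate 3. Examples are Mmp8 and Kdr, with means of 4.12 and 3.61 CPM without it. Over all 9714 genes, replicate 3 was the highest library in 27.7%, replicate 4 in 24.6%, replicate 2 in 18.3%, replicate 1 in 15.8% and replicate 5 in 13.6%. Replicate 5 lacks part of these genes, and its share was 14.7% over those that all 5 libraries hold. The 73 genes were picked because replicate 3 was highest. In them that library exceeded the median of the others by a median of 3.94-fold, from 2.40-fold to 9.59-fold. Of the 69 among them that all 5 libraries hold, replicate 5 was second highest in 63. The matching share over all genes highest in replicate 3 was not counted. Replicate 5 was also the library closest to replicate 3 over all genes, with a pair value of 0.119. The 63 are therefore not shown to be particular to these genes. Without replicate 3, 36 genes at 5 CPM or more had a CV over 0.5, and 37 of the 87 still exceeded that value. A single library lay apart from the others, by Dixon's gap ratio, in 475 genes or 4.89%, close to the 1 in 20 that chance gives. Without replicate 5 the number was 818, away from that rate. Replicate 3 was that library in 258 of the 475, and in 174 genes, or 1.79% of all, it was apart on the high side.

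Slpi, a secreted inhibitor of neutrophil elastase (chromosome 2, 164354070 to 164356507), had the largest CV among genes at 20 CPM or more. It had 15.7, 13.9, 171, 19.9 and 50.7 CPM in replicates 1 to 5, with a CV of 1.23. Replicate 3 was far above the others, replicate 5 was intermediate, and replicates 1, 2 and 4 lay close together. Many of the most variable genes repeated this order. S100a9, a calcium-binding alarmin of neutrophils and monocytes (chromosome 3, 90692630 to 90695721), had 115, 67.8, 814, 107 and 361 CPM. Its partner S100a8 had 58.7, 25.04, 333, 50.2 and 135 CPM. Replicate 3 and then replicate 5 were again the highest for both.

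Receptors of neutrophils and inflammatory monocytes showed the same order. Cxcr2, the receptor for neutrophil-attracting CXC chemokines, had 26.2, 12.4, 147, 32.0 and 78.2 CPM. Csf3r, the receptor for the neutrophil growth factor G-CSF, had 106, 98.1, 332, 118 and 173 CPM. Trem1, which amplifies inflammatory signals, had 44.4, 35.2, 336, 57.6 and 98.8 CPM. Il1r2, a decoy receptor for IL-1, had 67.1, 57.6, 369, 86.9 and 139 CPM. In each of these the values of replicates 1, 2 and 4 were below that of replicate 5. The enzyme genes Hdc, which makes histamine, and Irg1, which makes itaconate, followed with 723 and 446 CPM in replicate 3 against 88.3 to 244 and 47.1 to 164 CPM elsewhere. Slfn4, a schlafen family gene of myeloid cells, had 86.8, 104, 814, 95.2 and 274 CPM.

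**Figure D4:**
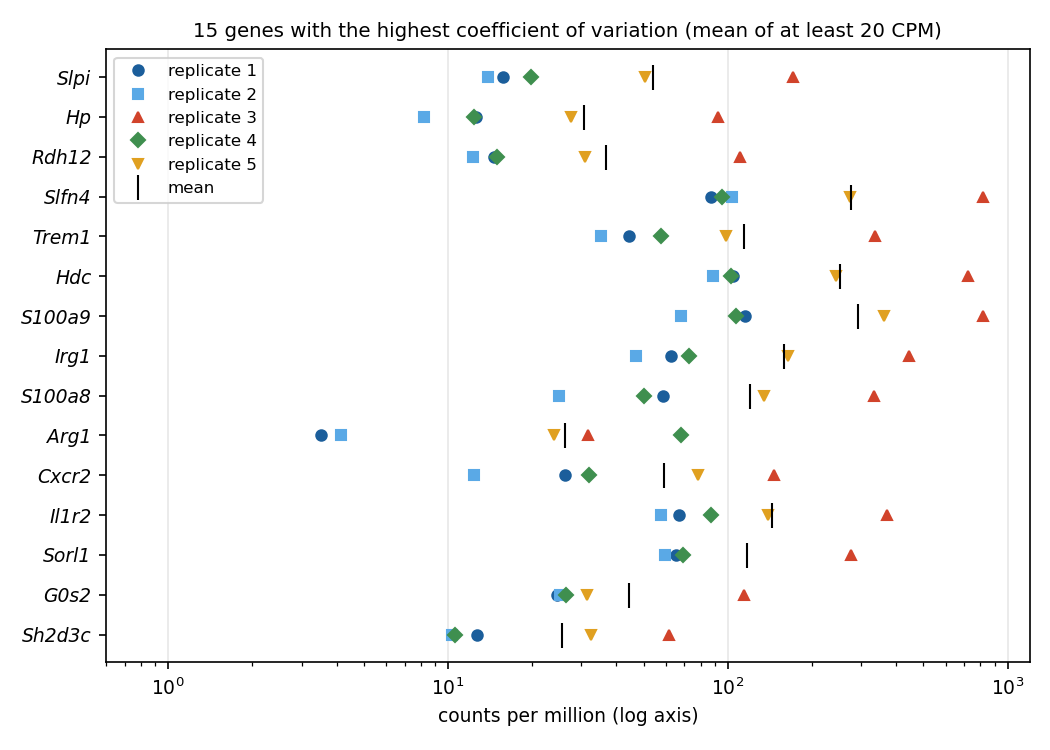
Level in each library of the 15 genes with the highest coefficient of variation among those with a mean of at least 20 CPM, on a log axis. Each symbol is 1 library and the black bar is the mean; Sorl1 lies beyond Aplp2 on chromosome 9 and has 4 symbols. Replicate 3 is highest for every gene but Arg1, for which replicate 4 is highest with 68.2 CPM. Hp, Rdh12 and Sh2d3c passed the filter of 20 CPM only through replicate 3, with means of 15.1, 18.1 and 16.4 CPM without it.

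The genes just described include the neutrophil markers S100a9, S100a8, Cxcr2 and Csf3r, and so the whole list of these markers is given. Of 12 genes listed, 11 were in the table and 6 had a mean of at least 5 CPM. Of these 6, 5 had a CV over 0.5, against 0.896% of all genes. They were S100a9, Csf3r, S100a8, Cxcr2 and Mmp8, all highest in replicate 3. That library was highest in 27.7% of all genes and in 73 of the 87 with a CV over 0.5. Mmp8 reached 5 CPM only through replicate 3, with a mean of 4.12 CPM without it. Retnlg, a resistin-like gene of neutrophils, did not follow these 5, with 40.0, 32.8, 32.4, 30.7 and 24.6 CPM and its highest value in replicate 1. The 8 markers that all 5 libraries hold summed to 350, 239, 1684, 343 and 778 CPM. The granule genes Camp, Ngp and Ltf, read in replicates 1 to 4, were highest in replicate 1, with 0.564, 3.22 and 3.30 CPM, and had 0.0412, 0.247 and 0.782 CPM in replicate 3. Endothelial markers were also highest in replicate 3, in all 5 members at 5 CPM or more, against 27.7% of all genes, at much lower levels. Without replicate 3 only 3 endothelial members reached 5 CPM, so the others passed that filter through the library in which they were highest. The 8 that all 5 libraries hold summed to 56.8, 36.6, 85.6, 43.7 and 55.9 CPM. Smooth muscle and pericyte markers summed to 42.5, 40.7, 63.8, 27.7 and 42.2 CPM over 7 genes. The part of RNA from neutrophils and from these vessel cells in the spread of the other genes was not tested.

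The recruited monocyte list overlapped with that pattern. Its median CV was 0.274, against 0.107 over all genes, and 4 of its 12 members had a CV over 0.5, against 0.896% of all genes. Replicate 3 was highest in 8 of the 12, against 27.7%. Ly6c2, a surface marker of inflammatory monocytes, had 5.80, 7.79, 21.6, 4.63 and 7.15 CPM. The chemokine receptor gene Ccr2, which draws monocytes to inflamed tissue, did not share this order, with 875, 1037, 862 and 750 CPM (n = 4). Without replicate 3, the list's median CV was 0.178 and 1 of its members had a CV over 0.5.

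Interferon-stimulated genes had a median level of 52.3 CPM over 24 members, all of which had at least 5 CPM, and their median CV was 0.210. Replicate 3 was highest in 17 of the 24 and replicate 4 lowest in 13, against 27.7% and 22.4% of all genes. Rsad2, the antiviral enzyme viperin, had 117, 102, 299, 98.5 and 126 CPM. Isg15, a ubiquitin-like protein, had 21.7, 24.6, 61.6, 21.4 and 26.8 CPM. Both were high in replicate 3 alone, and without that library their CVs were 0.117 and 0.107. The guanylate-binding gene Gbp7, induced by interferon gamma, was highest in replicate 1 instead, with 118, 114, 108, 96.0 and 83.4 CPM. Oas2, an antiviral sensor of double-stranded RNA, had the smallest spread of the list, with a CV of 0.0695 at 146 CPM.

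Inflammatory cytokines were expressed at this late time. Il1b, the precursor of IL-1 beta, was 55th in the order with 1013, 1198, 2107, 1344 and 1559 CPM in replicates 1 to 5. Replicate 3 was highest, and the CV was 0.292. The receptor antagonist Il1rn, which blocks IL-1, had 1013 ± 107 CPM, with a CV of 0.106. Tnf had 92.0 ± 12.9 CPM and the anti-inflammatory cytokine Il10 had 192 ± 41.8 CPM. Nos2, which makes nitric oxide, was low, with 2.74, 1.11, 9.39, 0.627 and 1.61 CPM.

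The immediate early genes, which respond within minutes to stimuli including tissue dissociation, were abundant. The 21 members at 5 CPM or more had a median of 504 CPM, with Klf6 at 1543 ± 184 CPM, Fos at 1450 ± 268 CPM and Junb at 611 ± 203 CPM. Replicate 3 was highest in 15 of the 21 and replicate 4 was lowest in 11, against 27.7% and 22.4% of all genes. Fos had 1324, 1527, 1867, 1156 and 1377 CPM. The heat shock chaperones, which refold damaged proteins, had another order. Replicate 1 was highest in 10 of 12, against 15.8% of all genes, and Hsp90aa1 had 1717, 1364, 871, 1125 and 964 CPM. Hspa1a and Hspa1b, near-identical inducible copies of HSP70, had 1438 ± 241 and 1451 ± 231 CPM, and their split between the copies is uncertain.

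Chemokine genes differed in their top library. Ccl6, the most abundant CC chemokine, had 2338 ± 239 CPM. Ccl2 and Ccl7, neighbours that draw monocytes, had 586, 527, 472, 1103 and 584 CPM, and 694, 705, 674, 1606 and 748 CPM. Both were about level in 4 libraries and high in replicate 4. Ccl17, which draws T cells, had 7.71, 6.99, 7.95, 31.6 and 16.2 CPM, also highest in replicate 4. Over the CC chemokine list, 7 of 13 members were highest there, against 24.6% of all genes. Without replicate 4, the list's median CV went from 0.211 to 0.117. The CXC chemokine genes Cxcl2 and Cxcl3, which draw neutrophils, had 1413 ± 270 and 152 ± 64.9 CPM, and Cxcl3 was also highest in replicate 4, with 236 CPM.

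Genes induced by IL-4 were partly very abundant and partly variable. Mrc1 had 4457 ± 375 CPM and Retnla 2165 ± 470 CPM. Retnla had 2492, 2613, 1434, 2286 and 1998 CPM, and replicate 3 was lowest. Arg1, the arginine-degrading enzyme arginase 1 (chromosome 10, 24915207 to 24927470), had 3.504, 4.13, 31.6, 68.2 and 23.9 CPM. Replicates 1 and 2 were low, replicate 4 was high, and the other two lay between them. The CV was 1.01, and 1.22 without replicate 3. Ear2, an eosinophil-associated ribonuclease, and the lectin gene Mgl2 were less spread, with 273 ± 39.4 and 413 ± 39.2 CPM.

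Resident macrophage genes lay lowest in replicate 3 in 8 of 15 cases, against 34.9% of all genes. In 3 of the 15 replicate 3 was highest instead, against 27.7% of all genes. Sepp1 had 9561, 9375, 6353, 8638 and 6824 CPM, with replicates 3 and 5 below the other three. Igf1, a growth factor that supports repair, had 530, 506, 352, 488 and 399 CPM, in the same order of low libraries. Lyve1, the hyaluronan receptor of perivascular macrophages, had 212 ± 18.1 CPM, and Timd4, an efferocytosis receptor of long-lived resident macrophages, was low with 6.10 ± 1.35 CPM. Lipid handling genes were also lowest in replicate 3 in 11 of 15 cases, against 34.9% of all genes. Cd36, a scavenger receptor for oxidised lipid, had 1241, 1284, 782, 1779 and 963 CPM, and Lpl, which releases fatty acids from lipoproteins, had 1318, 1518, 1089, 1484 and 1118 CPM. Apoe went against this and was highest in replicate 3 with 8286 CPM.

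Most genes of MHC class II presentation had their lowest value in replicate 4. H2-Aa, H2-Eb1 and Ciita, the transcriptional co-activator of class II genes, were among them. The upstream sequences of H2-Aa and H2-Eb1 are shown as examples chosen among those that hold a known motif. Whether the motif bears on the shared lowest library was not tested. The 250 bases before the start of each gene, from RefSeq on GRCm38.p6, are printed in the direction of transcription. They are chr17:34287824-34288073 on the minus strand for H2-Aa and chr17:34305617-34305866 on the plus strand for H2-Eb1. Capitals mark CTGATTGG, the core of the Y box known from class II promoters.
H2-Aa: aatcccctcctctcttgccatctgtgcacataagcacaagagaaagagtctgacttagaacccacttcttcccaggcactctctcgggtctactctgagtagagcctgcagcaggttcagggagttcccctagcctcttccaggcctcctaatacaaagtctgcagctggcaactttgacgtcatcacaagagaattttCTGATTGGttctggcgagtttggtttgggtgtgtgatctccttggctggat
H2-Eb1: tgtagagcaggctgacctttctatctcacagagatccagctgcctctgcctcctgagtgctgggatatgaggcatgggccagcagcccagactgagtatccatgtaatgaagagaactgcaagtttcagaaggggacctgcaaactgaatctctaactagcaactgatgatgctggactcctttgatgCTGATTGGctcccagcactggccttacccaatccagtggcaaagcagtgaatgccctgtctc

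The motif, searched on both strands, lay 51 to 44 bases before the start of H2-Aa and 62 to 55 before that of H2-Eb1. It was also found before H2-Oa and H2-Eb2, so in 4 of the 10 class II genes with an entry. It was not found before H2-DMa, H2-DMb1, H2-DMb2, H2-Ob, Ifi30 and Ctss. Of the 12 genes looked for, H2-Ab1 and Ciita had no entry. Of 32851 promoter entries of that length, 3.83% held it. A match describes the letters and is no evidence that a factor bound there.

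H2-Aa had 4399, 4861, 3999, 3799 and 4477 CPM in replicates 1 to 5. H2-Eb1 had 3487, 4100, 3517, 3226 and 4063 CPM, and Ciita had 76.6, 92.9, 92.2, 49.8 and 78.4 CPM. Replicate 4 was lowest for all 3 genes, and for Ciita it lay below the other 4 libraries by a wide margin. Without it the CV of Ciita was 0.102 in place of 0.224. Of the 11 class II genes at 5 CPM or more, 9 were lowest in replicate 4 and 7 highest in replicate 2, against 22.4% and 18.3% of all genes. Ctss, the protease that trims the invariant chain, went against this and was lowest in replicate 3. The list as a whole was not widely spread, with a median CV of 0.0970.

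Lysosomal, complement and respiratory genes were among the most even. The lysosomal list had a median level of 1282 CPM and a median CV of 0.0597, and 1 of its 14 members at 5 CPM or more lay above the median CV of all genes. That member was Ctsk, a collagen-degrading cathepsin, with 64.9 ± 9.03 CPM. Complement genes had a median CV of 0.0876. C1qb and C1qa, 2 chains of the C1q recognition molecule, had 1700 ± 105 and 1311 ± 98.9 CPM. The respiratory chain list had a median CV of 0.0771, with Atp5b, a subunit of ATP synthase, at 520 ± 20.3 CPM. The 4 listed sort markers, Csf1r included, had the lowest median of all lists, 0.0574.

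**Figure D5:**
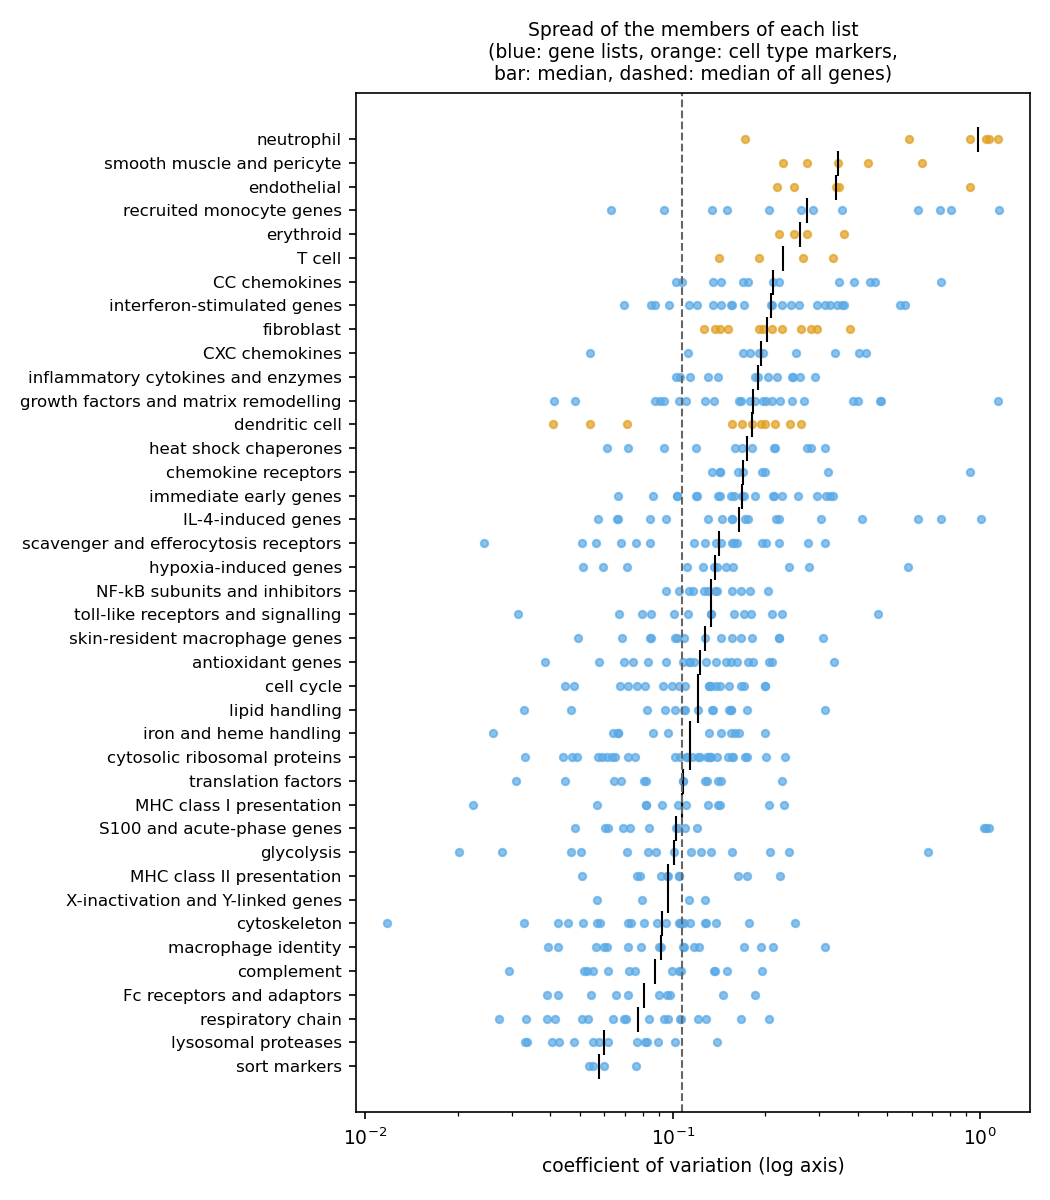
Coefficient of variation (log axis) of the members at 5 CPM or more of each list with at least 4 such members. Blue points are gene lists, orange points cell type markers, black bars the list medians and the dashed line the median of all 9714 genes (0.107). Neutrophil markers have the highest median (0.987) and the sort markers the lowest (0.0574).

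Fibroblast markers had a median CV of 0.203 over 12 genes. Replicate 5 was highest in 9 of the 10 that all 5 libraries hold, against 14.7% of all genes that they all hold. Col1a1, a chain of type I collagen, had 747, 774, 1488, 918 and 1648 CPM. Replicates 3 and 5 were above the other three in Col1a1, Col1a2 and Col3a1. Dcn and Lum, small proteoglycans of connective tissue, were less uneven, with 280 ± 35.5 and 117 ± 16.6 CPM, and in Lum replicate 3 was lowest with 98.5 CPM. The part of fibroblast RNA in the spread between libraries was not tested.

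Among 15 glycolysis genes, whose median CV was 0.101, Slc16a3, which exports lactate, was the only one with a CV over 0.5. It had 92.2, 73.1, 324, 105 and 158 CPM. Replicate 3 was highest in 9 of the 15 and replicate 2 was lowest in 9, against 27.7% and 15% of all genes. Vegfa, which drives vessel growth, had 295, 282, 287, 379 and 283 CPM and was apart in replicate 4. Proliferation genes were present, with Mki67 at 235 ± 30.8 CPM and Top2a, a topoisomerase of dividing cells, at 91.4 ± 12.6 CPM, and replicate 3 was lowest in 11 of 20 cell cycle genes, against 34.9% of all genes. Cytosolic ribosomal protein genes held 0.678% ± 0.044 of the counts, a value that is uncertain because reads can be split among their near-identical pseudogenes. Replicate 2 was highest in 16 of the 30 at 5 CPM or more and replicate 3 lowest in 18, against 18.3% and 34.9% of all genes. Spp1, the matrix and cytokine protein osteopontin, had 466, 481, 1149, 438 and 611 CPM, with replicate 3 well above the other 4 libraries.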

How the data were processed

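The values in the deposited table are estimated counts per gene symbol, not normalised, of which 15.0% to 18.8% per library are not whole numbers. The submitters' processing notes list Partek 6.6, DESeq2, SAMtools 1.4, HISAT2 2.1.0 and CASAVA 1.8, and mm10 as the build. What each tool did and which gene annotation was used are not given in the sources used here. The deposited table of normalised values was not used.

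Estimated counts were rounded to whole numbers and scaled to CPM with TMM factors (edgeR 4.0.16, R 4.3.3) computed on the genes that all 5 libraries hold. Genes of which replicate 5 has no counts, from Aplp2 onward, were read from replicates 1 to 4. No groups were compared, so no test was made. The CV covers the spread between libraries, and the counting CV is the value expected from counts alone. Depth limits it: 1 CPM stands for 19.9 to 49.7 counts per library. Common dispersion came from edgeR without covariates, on genes that pass its low-count filter. Dixon's gap ratio was used to look for a library apart, counted over genes at 5 CPM or more and applied to the named genes at any level.

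Positions came from RefSeq on GRCm38.p6, with 17103 genes matched by symbol, 1098 by an older name and 102 unmatched. Exon lengths came from a GENCODE annotation of the same build. The strand is not marked, so antisense and overlapping genes cannot be separated. The calculations were tested on simulated data.

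Named genes are the 25 most abundant, the sort markers, the most abundant, most and least variable member of each of 33 gene lists, the 2 most abundant of each of 17 marker lists, the 15 genes of highest and 10 of lowest CV at 20 CPM or more, Arg1, Nos2, Retnla and Aplp2. A few genes that this rule or the lists hold are not reported here. Other list members and genes that the text names were chosen after their values were seen. The members and lists were chosen with earlier results of these data known. Alternatives were scaling by total counts, by upper quartiles or by RLE, no filter, a filter of 20 CPM, leaving out each library, non-robust dispersion and DESeq2 1.42.0. The use of only the genes that all 5 libraries hold was added after seeing the data.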

Additional observations from a re-analysis of the deposited data

Results flagged for a closer look

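In 25 of the 201 named genes, 1 library lay far from the others, by its gap to the nearest library relative to the whole range. The share over all genes at 5 CPM or more was 4.89%. Chance gives this in about 1 in 20 genes, and some of these genes were named for their high CV or after their values were seen. Replicate 3 was the high library in 16, against 1.79% of all genes at 5 CPM or more. Its values were 114 CPM for G0s2, a regulator of fat breakdown, 723 for Hdc, 92.6 for Hp, which binds free hemoglobin, 369 for Il1r2, and 25.3 for Mmp8, a neutrophil collagenase. They were 111 for the retinol dehydrogenase gene Rdh12, 299 for Rsad2, 814 for Slfn4, 171 for Slpi, 276 for the sorting receptor gene Sorl1 (n = 4) and 336 for Trem1. They were 61.6 for Isg15, 21.6 for Ly6c2 and 1149 for Spp1. At lower levels they were 9.39 for Nos2 and 0.0412 for Cd3e (n = 4), which had a single count there and none in the other libraries that were read. Nos2 and Cd3e had means below 5 CPM. Replicate 3 was the low library for Aplp2 at 552 CPM, for Cybb, the catalytic subunit of the phagocyte NADPH oxidase, at 973 CPM, and for the Y-linked demethylase gene Uty at 51.8 CPM (all n = 4). Replicate 4 was high for Vegfa at 379 CPM, for Ccl2 at 1103 CPM and for Ccl7 at 1606 CPM. Replicate 2 was high for Cd207, the Langerhans cell marker langerin, at 11.4 CPM. Replicate 1 was low for the hemoglobin gene Hba-a1 at 4.95 CPM and for Paxip1, a DNA damage response gene, at 25.1 CPM. For Paxip1 the other libraries lay between 25.8 and 25.9 CPM, so the gap was small in size.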

How the results depend on the processing

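No paired analysis was possible because 1 group of libraries was used and no groups were compared. Under scaling by total counts, by upper quartiles or by RLE, the median CV, the number of genes with a CV over 0.5, the number at 1000 CPM or more, the share of the 100 most abundant genes, the number of genes with 1 library apart and the common biological coefficient of variation stayed within 1.5 times their values. With no filter, the median CV was 0.173, the number of genes with CV over 0.5 was 4254 and 1981 genes had 1 library apart, since genes with few counts entered. With a filter of 20 CPM, 36 genes had a CV over 0.5 and 293 had 1 library apart, since fewer genes were read. Leaving out each library in turn gave a median CV of 0.0888 to 0.112, from 36 to 105 genes with a CV over 0.5 (36 without replicate 3), from 101 to 103 genes at 1000 CPM or more, a share of 24.6% to 24.7% for the 100 most abundant, and 340 to 818 genes with 1 library apart (818 without replicate 5). It gave a common biological coefficient of variation of 0.123 to 0.168, the lowest without replicate 3. The median gene-wise dispersion of DESeq2 gave 0.108. With only the genes that all 5 libraries hold, chosen after seeing the data, 79 genes had a CV over 0.5. Over the named genes, the CV changed by more than 1.5 times in 57 without replicate 3 and in 28 with total counts. The total of replicate 5 lacks the counts from Aplp2 onward, so the changes under total counts include that loss. Depth differs between libraries. As 1 CPM stands for 19.9 to 49.7 counts, genes far below 1 CPM have few counts behind each value.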

Other observations

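Among the 87 genes with a CV over 0.5, a few were highest in a library other than replicate 3. Csf1, the growth factor for macrophages, had 30.7, 29.0, 76.0, 31.8 and 80.1 CPM in replicates 1 to 5, high in replicates 3 and 5. Egln3, an oxygen-sensing hydroxylase, had 4.67, 3.66, 11.2, 4.29 and 12.5 CPM, also high in replicates 3 and 5. Slc15a2, a peptide transporter gene, had 74.8, 191, 101, 89.0 and 41.5 CPM and was highest in replicate 2. Lars2, the mitochondrial leucyl-tRNA synthetase, had 197, 411, 124 and 154 CPM (n = 4), also highest in replicate 2. Enpp2, which makes lysophosphatidic acid, had 1.15, 2.78, 11.2, 11.8 and 4.83 CPM, high in replicates 3 and 4. These genes were chosen after their values were seen.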
